A study of Mus musculus with 4 samples.

Results

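The 10 genes described here move iron into the erythroblast, sense it, store it and pass it to the mitochondrion. They are Tfrc, Tfr2, Slc11a2 and Steap3 (uptake), Ireb2 and Aco1 (sensing), Fth1, Ftl1 and Ncoa4 (storage and release), and Slc25a37 (mitochondrial import). They were chosen by gene symbol among the 23185 probe sets with 1 gene symbol, of 25206 probe sets in all. Each symbol was held by 1 probe set named by its Entrez gene number, and all 10 passed the filter on low values that left 13911 genes to test.

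All RNA came from erythroblasts, immature red blood cells, taken from mouse fetal liver at E14.5, in mid-gestation, with magnetic beads against Ter119, which marks the surface of maturing red cells. No genotype, strain or drug treatment was named for any sample. The 4 Affymetrix arrays held 2 biological replicates of RNA precipitated with an antibody against Cpeb4 (the IP), 1 precipitate made with rabbit IgG as the control antibody, and 1 sample of the input RNA before precipitation. The study asked which mRNAs were associated with Cpeb4, an RNA-binding protein that recognises cytoplasmic polyadenylation elements in mRNA and controls its translation. Each control was a single array, and whether it came from the same cells as an IP replicate was not stated.

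Developing red cells take up more iron than almost any other cell, because every haemoglobin needs heme. Transferrin, the iron carrier of plasma, binds the transferrin receptor at the cell surface and is taken into endosomes, where the iron is released, reduced and pumped into the cytosol. From there it goes to the mitochondrion for heme and iron-sulfur clusters, or into ferritin shells for storage. When iron is scarce, the iron regulatory proteins encoded by Aco1 and Ireb2 bind hairpins called iron-responsive elements (IRE), which blocks translation of ferritin mRNA and stabilises transferrin receptor mRNA. This circuit is thus itself controlled after transcription.

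Values below are the deposited log2 expression values, and differences are IP minus control on the same log2 scale, so that 1 unit is a 2-fold difference. A gene "rose" or "fell" when it passed a limma test with a Benjamini-Hochberg adjusted p below 0.05 over all 13911 tested genes. The spread in that test came from the IP replicates alone, so the test takes the single control arrays to be as variable as the IP. The IgG array had a narrower range of values than the others, with an SD over probe sets of 1.74 against 2.05 to 2.13. The 12 matched erythroid markers of 15 listed, Tfrc among them, lay above the array median on every array. Their mean value was 10.34 in input, 9.67 in IgG and 9.77 and 9.79 in the IP. Against input none of the 12 rose and 5 fell, with a median difference of -0.45, where 10.2% of all tested genes rose and 15.9% fell. Against IgG 2 rose and 2 fell, where 36.1% and 21.2% of all tested genes did. By size, 3 were at least 2-fold below input in both replicates, as were 5.18% of tested genes.

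Markers of other cell types were on average higher in the IP than in input. The mean over 8 neutrophil markers was 6.14 in input, 6.91 in IgG and 8.01 and 8.03 in the IP. Over 7 megakaryocyte markers it was 6.63, 7.48, 8.55 and 8.70. Over 12 macrophage markers it was 4.08, 4.67, 5.16 and 5.25, and 4 to 6 of these lay under the array median on each array. Over 9 hepatocyte markers it was 4.08, 4.75, 5.40 and 5.46, with 2 to 5 under the array median. The 6 endothelial markers had 4.0, 4.38, 4.37 and 4.36, with 4 under the array median on each array. Their medians were 3.85, 4.01, 3.85 and 3.99, and those of the macrophage markers 3.99, 4.76, 4.66 and 4.79. Against input 7 of 8 tested neutrophil, 6 of 7 megakaryocyte, 6 of 8 macrophage and 5 of 7 hepatocyte markers rose. Of 5 tested endothelial markers 1 did, Pecam1. Among all tested genes 10.2% rose against input. The part of these cells in the iron gene values was not tested. In such bulk RNA, more cells of a type, more RNA per cell and more of an mRNA recovered in the precipitate cannot be told apart.

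Against IgG, 6 of the 10 iron genes rose and none fell, and 3 of them (Ireb2, Aco1 and Ncoa4) exceeded IgG by 2-fold or more in each IP replicate. Among all tested genes 36.1% rose against IgG and 21.2% fell, 18.6% exceeded it by 2-fold or more in each replicate, and 6.24% were that much lower. All members but Ftl1 had levels at which 45.0% to 67.6% of tested genes rose against IgG, so a count of 6 is near what genes of these levels showed. Against input, 2 iron genes rose (Ireb2 and Fth1) and 1 fell (Tfr2), where 10.2% of tested genes rose and 15.9% fell. No iron gene was 2-fold away from input in both replicates, where 4.04% of tested genes were that much higher and 5.18% that much lower. Ireb2 was the 1 member that rose against both controls, as did 7.44% of tested genes.

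**Figure D1:**
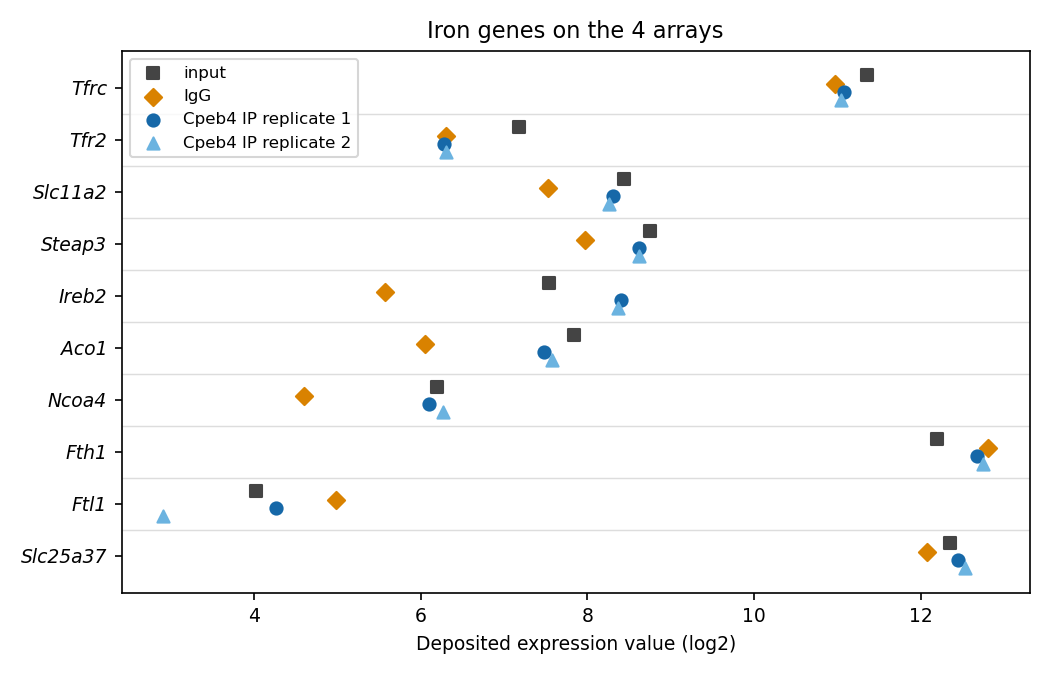
Deposited log2 expression values (x axis) of the 10 iron genes (rows) on the input array, the IgG array and the arrays of Cpeb4 IP replicates 1 and 2, 1 symbol per array. For Ireb2 both IP values (8.40 and 8.36) lie to the right of input (7.54) and IgG (5.58), and for Ftl1 the IP values lie 1.36 apart.

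Ireb2 encodes iron regulatory protein 2, the RNA-binding sensor that is degraded when iron is plentiful. Its value was 7.54 in input, 5.58 in IgG, and 8.40 and 8.36 in IP replicates 1 and 2. Both IP arrays lay above both controls, and the IgG array was the lowest. Ireb2 rose against IgG by 2.80 (6.99-fold, SE 0.12, limma adjusted p = 0.00159) and against input by 0.84 (1.79-fold, SE 0.12, limma adjusted p = 0.0167). Among tested genes 0.949% had a larger difference from IgG and 6.35% a larger difference from input, and 4.09% exceeded both controls by more than the smaller of its differences. Quantile normalization of the 4 arrays again, which makes their distributions equal, gave 2.43 against IgG and 1.00 against input. With trend and robust options in limma, changed together, the difference from input had limma adjusted p = 0.0533, the highest of 6 alternatives that kept the controls apart (the lowest was 1.65e-10).

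Aco1 encodes cytosolic aconitase, which becomes iron regulatory protein 1 when it loses its iron-sulfur cluster. Its value was 7.84 in input, 6.06 in IgG, and 7.48 and 7.58 in the IP. Unlike those of Ireb2, the IP values of Aco1 lay between the controls, below input and above IgG. Aco1 rose against IgG by 1.47 (2.77-fold, SE 0.12, limma adjusted p = 0.00233), and by 0.90 after quantile normalization again. The call passed in all 6 alternatives that kept the controls apart, with limma adjusted p from 8.28e-29 to a rounded 0.05, at the edge. Its difference from input was -0.31, with a 95% interval of -0.65 to 0.03 (limma adjusted p = 0.161). The 2 sensor mRNAs thus had differences from IgG of 2.80 and 1.47, and differences from input of opposite sign, 0.84 for Ireb2 and -0.31 for Aco1.

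Tfrc encodes transferrin receptor 1, the main route of iron into red cell precursors, and its mRNA carries IREs in the 3′ untranslated region. Its value was 11.35 in input, 10.97 in IgG, and 11.07 and 11.04 in the IP. The IP values lay between the controls and close to IgG. The difference was 0.08 from IgG (95% interval -0.24 to 0.41, limma adjusted p = 0.600) and -0.29 from input (95% interval -0.62 to 0.03, limma adjusted p = 0.163). Among tested genes 49.8% had a larger difference from IgG than Tfrc, which put it near the middle.

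Tfr2 encodes transferrin receptor 2, which senses transferrin saturation and, in erythroblasts, associates with the erythropoietin receptor. Its value was 7.18 in input, 6.30 in IgG, and 6.28 and 6.30 in the IP. The IgG and IP arrays were alike to within 0.02, and input stood above all of them. Tfr2 fell by 0.88 against input (1.84-fold lower, SE 0.12, limma adjusted p = 0.0151), while it differed from IgG by -0.01 (95% interval -0.33 to 0.31, limma adjusted p = 0.985). The fall against input passed in all 6 alternatives that kept the controls apart, with limma adjusted p from 3.31e-06 to 0.0365. Among tested genes 8.34% lay further below input. After quantile normalization again the difference from IgG was -0.59 and also passed (limma adjusted p = 0.0151, the lowest of these 6 alternatives, whose highest was 1).

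Slc11a2 encodes the divalent metal transporter that carries iron out of the endosome, and 1 form of its mRNA has an IRE in the 3′ untranslated region. Its value was 8.44 in input, 7.53 in IgG, and 8.31 and 8.26 in the IP. Steap3 encodes the endosomal ferrireductase that readies iron for this transporter, and its value was 8.74 in input, 7.97 in IgG, and 8.62 and 8.62 in the IP. In both genes the IP lay just below input and clearly above IgG. Slc11a2 rose against IgG by 0.76 (1.69-fold, limma adjusted p = 0.00869) and Steap3 by 0.65 (1.57-fold, limma adjusted p = 0.0122), each in both replicates. After quantile normalization again neither rise passed, with differences of 0.03 for Slc11a2 and -0.02 for Steap3 (limma adjusted p = 0.732 and 0.672, the highest of 6 alternatives for each). Of these 6, 4 kept the call for Slc11a2 and 5 for Steap3. Against input they differed by -0.16 and -0.12 and did not pass, and the sign of both turned after that normalization (0.01 and 0.04).

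Fth1 encodes the ferritin heavy chain, which oxidises iron for storage, and its mRNA carries an IRE in the 5′ untranslated region. Its value was 12.19 in input, 12.81 in IgG, and 12.67 and 12.75 in the IP. Here the order of the controls was turned around, with IgG the highest array and input the lowest. Fth1 rose against input by 0.52 (1.43-fold, SE 0.12, limma adjusted p = 0.0493). The call was at the edge and passed in 2 of 6 alternatives that kept the controls apart, with limma adjusted p from 1.79e-09 to 0.143. Against IgG it differed by -0.10 (95% interval -0.44 to 0.23, limma adjusted p = 0.542), which became 0.12 after quantile normalization again.

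Ftl1 encodes the ferritin light chain, which helps iron to form its mineral core inside the shell, and its mRNA also carries a 5′ IRE. Its probe set read low, with 4.03 in input, 4.99 in IgG, 4.27 in IP replicate 1 and 2.91 in IP replicate 2. The IP replicates differed by 1.36, a gap that 0.0935% of tested genes exceeded, and they lay on either side of input. The difference from IgG was -0.72 in replicate 1 and -2.08 in replicate 2 (mean -1.40, SE 0.60, limma adjusted p = 0.117). From input it was 0.24 and -1.12 (mean -0.44, 95% interval -2.08 to 1.20, limma adjusted p = 0.726). The value of Ftl1 thus turned on which IP replicate was read, and no direction against input can be given. Ferritin genes have near-identical copies and pseudogenes, and how the probes of this set treat them was not stated.

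The ferritin probe sets also include 4 testis-type heavy chain copies on the array. Fthl17b read 4.87 in input, 6.54 in IgG, and 5.0 and 5.04 in the IP, so it too was highest on the IgG array. That array also had the highest median over all probe sets, 4.49 against 4.13 to 4.17 on the others. Fthl17a and Fthl17f read between 3.77 and 4.11 on all arrays and were not highest on IgG. Fthl17e read between 1.82 and 2.61 and was highest on IgG. None of the 4 was above the median of its array in the IP except Fthl17b.

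Ncoa4 encodes the receptor that delivers ferritin to the autophagosome so that stored iron is released, a step that red cell precursors use for heme. Its value was 6.20 in input, 4.60 in IgG, and 6.10 and 6.27 in the IP. IgG was far below the other arrays, and the IP replicates lay on either side of input. Ncoa4 rose against IgG by 1.59 (3.01-fold, SE 0.14, limma adjusted p = 0.00238). The call passed in 5 of 6 alternatives that kept the controls apart, with limma adjusted p from 3.59e-13 to 0.0698. Against input it differed by -0.01 (95% interval -0.39 to 0.36, limma adjusted p = 1), or 0.09 after quantile normalization again.

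Slc25a37 encodes mitoferrin-1, which carries iron across the inner mitochondrial membrane of erythroid cells. Its value was 12.35 in input, 12.07 in IgG, and 12.44 and 12.52 in the IP. Both IP arrays lay above both controls, as they did for 20.5% of tested genes, but by little. Slc25a37 rose against IgG by 0.41 (1.33-fold, SE 0.12, limma adjusted p = 0.0469), a call that passed in 3 of 6 alternatives that kept the controls apart (limma adjusted p from 1.04e-06 to 0.118). Its difference from input was 0.13 (95% interval -0.21 to 0.47, limma adjusted p = 0.576) and was 0.00 after quantile normalization again. Its relative Slc25a28, mitoferrin-2, read 7.17 in input, 6.36 in IgG, and 6.57 and 6.48 in the IP, and fell by 0.64 against input (limma adjusted p = 0.0311).

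**Figure D2:**
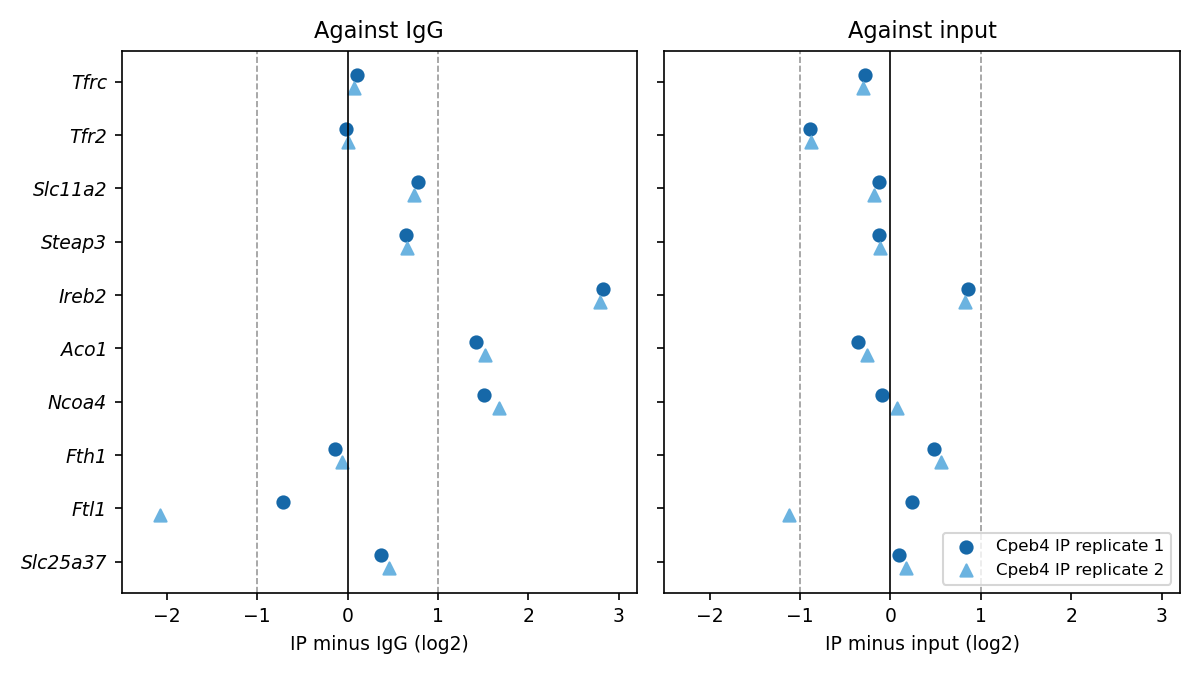
Differences of each Cpeb4 IP replicate from IgG (left) and from input (right) in log2 units (x axis) for the 10 iron genes, with dashed lines at 2-fold. Ireb2, Aco1 and Ncoa4 lie beyond 2-fold from IgG in both replicates, none lies beyond 2-fold from input in both, and Ftl1 alone lies beyond it in replicate 2 (-1.12).

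The IP replicates lay within 0.2 of each other for 9 of the 10 genes, Ftl1 being the exception. Small gaps were common, with a median of 0.08 over all tested genes. Ncoa4 had the widest gap of the 9 (0.16), and 29.4% of tested genes had a wider one. The controls differed more. The IgG array was below input for 8 genes and above it for Fth1 (0.62) and Ftl1 (0.96). The share of all tested genes below input on IgG by any amount was not counted. Ireb2 (-1.96), Aco1 (-1.78) and Ncoa4 (-1.60) were at least 2-fold lower on IgG than on input, as were 23.9% of tested genes, and no iron gene was 2-fold higher on it, as 7.93% of tested genes were. The IgG array enters both this difference and that between the IP and IgG. The median of IgG minus input was -0.83 over the iron genes and -0.15 over all tested genes, which were not matched for level. After quantile normalization again the median over all tested genes was -0.03, and Steap3 became 0.07 higher on IgG than on input.

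Both comparisons use the same IP arrays. Over the 10 iron genes the median difference was 0.53 from IgG, against 0.08 over all tested genes, and -0.14 from input, against -0.01. At the levels of all members but Ftl1, tested genes had median differences of 0.34 to 0.85 from IgG and -0.15 to -0.06 from input. Both medians of the iron genes lay within these ranges. Both IP replicates lay above IgG and below input for 4 genes (Tfrc, Slc11a2, Steap3 and Aco1), a pattern that 22.2% of tested genes had. They lay above both controls for Ireb2 and Slc25a37, and below both for none, where 11.9% of tested genes lay below both. No iron gene was 2-fold above both controls, where 2.49% of tested genes were, and none 2-fold below both, where 0.503% were. At a 1.5-fold threshold 1 iron gene, Ireb2, lay above both controls, as did 828 of all tested genes. At that threshold no iron gene lay below both, where 219 of all tested genes did.

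**Figure D3:**
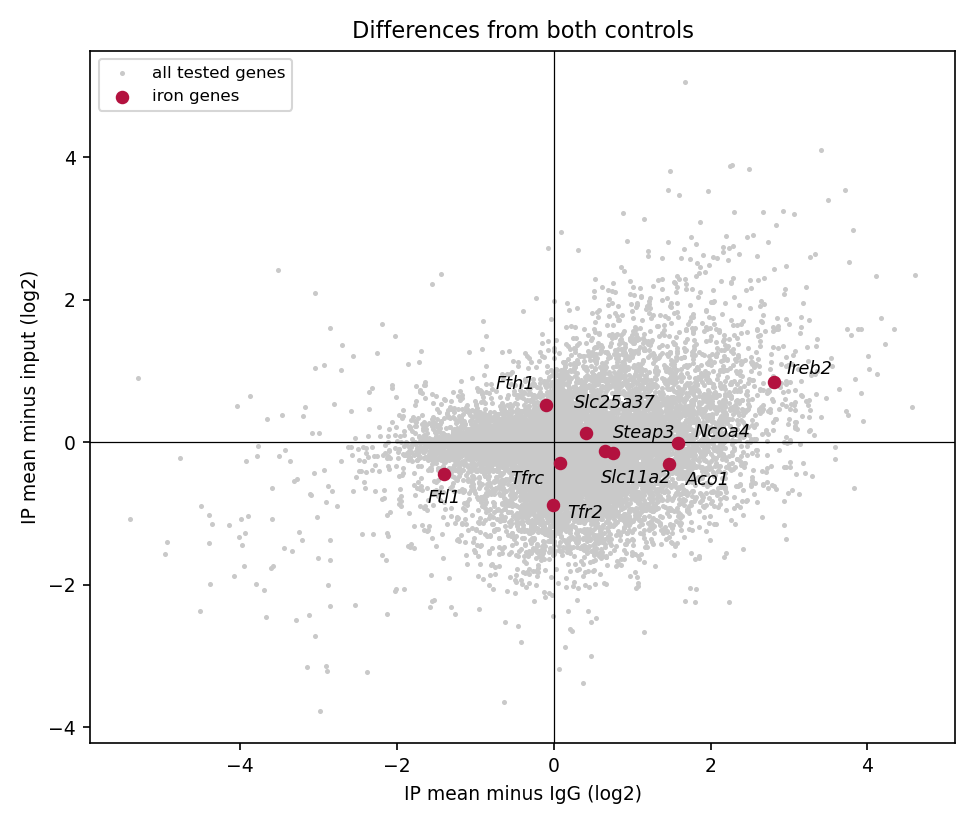
Mean IP difference from IgG (x axis) and from input (y axis), both in log2 units, for all 13911 tested genes (grey) and the 10 iron genes (red). Ireb2 (2.80 and 0.84) lies in the upper right, Tfr2 (-0.01 and -0.88) below the zero line of input, and Fth1 (-0.10 and 0.52) just left of the zero line of IgG, which it crossed to 0.12 after quantile normalization again.

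The difference from IgG rose with expression level over all genes, so each iron gene was also read beside the genes of its own level. Tested genes were put into 10 equal bins by their mean over the 4 arrays. The share of genes that rose against IgG went from 3.52% in the lowest bin to 67.6% in the bin below the top. The median difference from IgG went from -0.35 in the lowest bin to 0.85 in the bin below the top, while the median difference from input stayed between -0.15 and 0.00. Slc11a2 (0.76) and Steap3 (0.65) were at the middle of their bins, whose medians were 0.85 and 0.64. Slc25a37 (0.41), Tfrc (0.08) and Fth1 (-0.10) were below the median of 0.64 in the top bin.

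Ireb2, Ncoa4 and Aco1 stood higher against IgG among genes of like level, and of these Ireb2 alone was also far above the middle against input. In its bin of 1391 genes Ireb2 was exceeded by 2.44% against IgG and by 8.34% against input. Ncoa4 was exceeded by 10.6% against IgG, where its bin had a median of 0.34, and by 45.8% against input. Aco1 was exceeded by 24.2% against IgG, where its bin had a median of 0.78, and by 59.6% against input. Tfr2 was at the other side, with 13.5% of its bin lying lower against input. Ftl1, whose IP replicates disagreed, had 3.45% of its bin lying lower against input and 96.2% lying higher against IgG. These shares describe the arrays and are not tests.

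**Figure D4:**
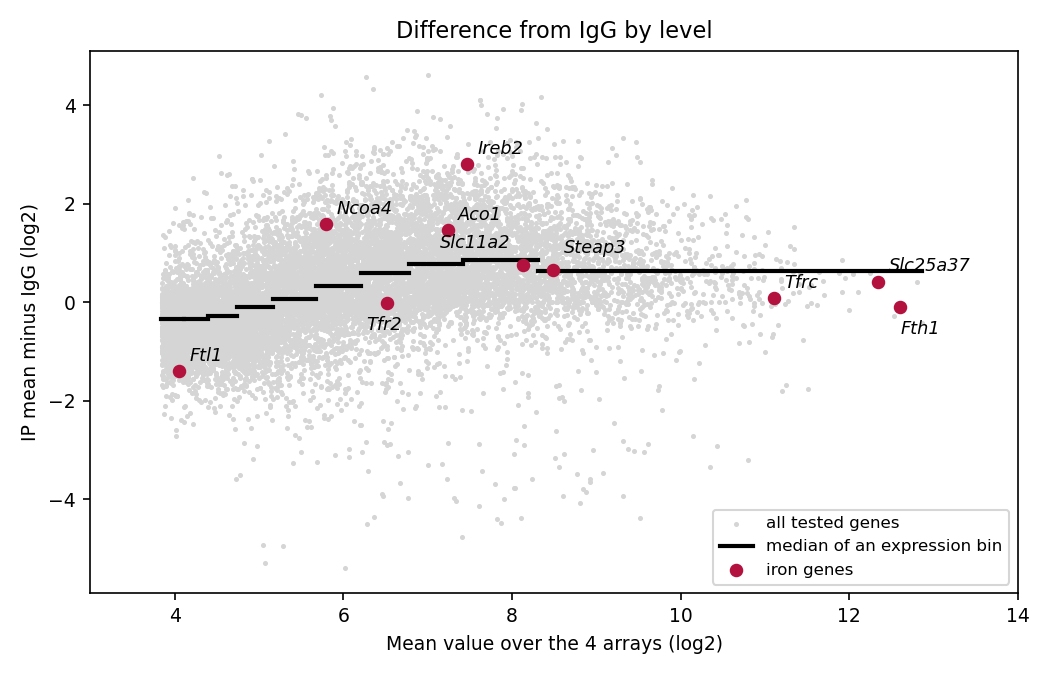
Mean IP difference from IgG (y axis, log2) against the mean value over the 4 arrays (x axis, log2) for all tested genes (grey) and the 10 iron genes (red), with black bars for the median of each of 10 expression bins. The bars climb from -0.35 to 0.85 and end at 0.64, Slc11a2 and Steap3 lie near their bars, and Ireb2 (2.80) lies well above its own.

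Of 18 tested genes that carry the transferrin receptor through its cycle, none rose against input and 9 fell, with a median of -0.41, where 10.2% of all tested genes rose and 15.9% fell. Here and for the lists below, the shares that fell against input were not counted by level. With the main filter 2213 of 13911 tested genes fell against input. A stricter filter on low values (60th percentile) left fewer genes to test, and 2506 of them fell. The share that fell was thus above 15.9% among the genes of higher level that it kept. In the bins that held all of the list but Rab4a, the median difference from input was -0.15 to -0.06. The falls in this list included the retromer subunits Vps29 (-1.23), Vps26a (-0.79) and Vps35 (-0.56), which return the receptor to the surface. Of 6 clathrin and adaptor genes, Cltb (-1.19), Ap2s1 (-0.86) and Cltc (-0.53) fell, while Clta (-0.29), Ap2a1 (0.04) and Ap2b1 (0.15) did not pass. Snx3, a sorting nexin needed for receptor recycling in red cells, fell by 0.65. Rab4a was the highest, at 0.43 (limma adjusted p = 0.694), and its IP replicates read 3.70 and 4.90. Against IgG 14 rose and 1 fell, where 36.1% and 21.2% of all tested genes did. All of the list but Rab4a had levels at which 45% to 67.6% of tested genes rose against IgG. Rab5b, an early endosome GTPase, was the highest at 2.44 and Dnm2, the dynamin that pinches off vesicles, the lowest at -0.48. Exoc6, the exocyst subunit whose loss causes anaemia in mice, rose against IgG by 1.42 and differed from input by 0.17 (limma adjusted p = 0.403).

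Of 19 tested genes of mitochondrial iron and iron-sulfur clusters, 2 rose and 6 fell against input, with a median of -0.38. The share that rose was near the 10.2% of all tested genes, and 15.9% of all fell. Bola3, which helps to pass clusters to mitochondrial enzymes, rose by 1.61 and read 9.47 in input, 9.14 in IgG, and 11.12 and 11.04 in the IP. It was the 1 gene of this list at least 2-fold above both controls. Hspa9, the mitochondrial chaperone of cluster transfer, rose by 0.51. The falls were led by Ciao1 (-1.66), Nubp1 (-1.40) and Iscu (-1.33), the first 2 of the cytosolic assembly machinery and the last the scaffold on which clusters are built. Against IgG 11 rose and 3 fell (36.1% and 21.2% of all tested genes), from Lyrm4, a partner of the cysteine desulfurase, at 2.18 to Ftmt, mitochondrial ferritin, at -0.74. All of the list but Iba57, Fdx1 and Ftmt had levels at which 56.4% to 67.6% of tested genes rose against IgG.

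Of the 4 other tested mRNAs with IREs, none rose against input. The list of 8 tested IRE mRNAs holds Tfrc, Slc11a2, Fth1 and Ftl1, and over all 8, 1 rose (Fth1) and 3 fell, with a median of -0.37, where 10.2% and 15.9% of all tested genes did. The falls were Cdc42bpa (-1.16), a kinase, Cdc14a (-0.65), a phosphatase, and Slc40a1 (-0.61), the iron exporter ferroportin. Alas2, the first enzyme of heme synthesis in red cells, differed from input by -0.10 (limma adjusted p = 0.693) and from IgG by -0.07. Against IgG 4 rose and none fell (36.1% and 21.2% of all tested genes), with a median of 0.27, from Cdc42bpa at 1.22 to Ftl1 at -1.40, which did not pass. All of the list but Ftl1 had levels at which 45% to 67.6% of tested genes rose against IgG.

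Of 10 tested genes that act on the sensors and on ferritin, 1 rose and 1 fell against input, near the 10.2% and 15.9% of all tested genes, with a median of -0.13. Pcbp2, an RNA-binding protein that also delivers iron to ferritin, rose by 1.14 and read 10.73 in input, 10.72 in IgG, and 11.81 and 11.92 in the IP, at least 2-fold above both. Mcoln1, a lysosomal channel that lets iron out, fell by 0.81. Fbxl5, the iron-sensing subunit of the ligase that marks Ireb2 protein for degradation, differed from input by -0.07 (limma adjusted p = 0.809) and rose against IgG by 0.48. Skp1a and Cul1, of the same ligase, rose against IgG by 1.59 and 1.36 and did not pass against input (-0.35 and -0.17). In all 8 rose and none fell against IgG, where 36.1% and 21.2% of all tested genes did, with Hif1a the highest at 3.10. All of the list but Fbxl5 had levels at which 61.8% to 67.6% of tested genes rose against IgG.

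Among the 5 lists, genes of systemic iron handling held the largest rises against input. Of 16 tested, 5 rose and 3 fell against input (10.2% and 15.9% of all tested genes), with a median of 0.07, and 2 (Lrp1 and Flvcr1) were at least 2-fold above both controls. The rises were Lrp1 (2.62), Trf (2.18), Hp (1.82), Flvcr1 (1.45) and Lcn2 (1.34). Trf, plasma transferrin, stands in the hepatocyte marker list and Lcn2 in the neutrophil marker list, both of which were higher in the IP. Flvcr1, the heme exporter needed for red cell formation, read 6.24 in input, 5.52 in IgG, and 7.67 and 7.71 in the IP. The falls were Slc46a1 (-0.83), a folate and heme carrier, Fam132b (-0.69), the erythroblast hormone erythroferrone, and Slc40a1. Against IgG 7 rose and 5 fell (36.1% and 21.2% of all tested genes), from Flvcr1 at 2.17 to Tmprss6, a protease that limits hepcidin, at -0.71.

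**Figure D5:**
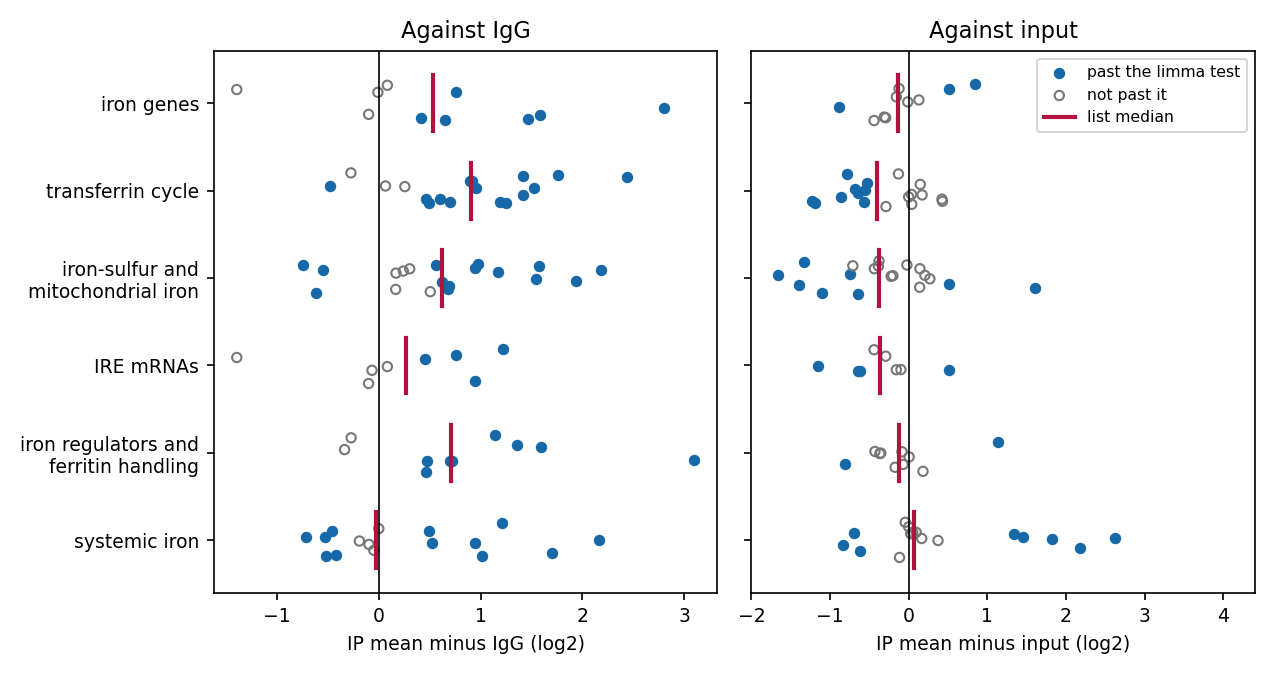
Mean IP difference from IgG (left) and from input (right) in log2 units (x axis) for the tested genes of the 10 iron genes and 5 further lists (rows), filled where the limma test passed, with red bars for list medians and vertical scatter for legibility. Against input, none of 18 transferrin cycle genes rose and 9 fell, and the medians of the 6 rows run from -0.41 to 0.07.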

How the data were processed

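RNA of 4 samples in 3 groups was measured on Affymetrix arrays. The authors deposited log2 values, with each probe set read once per array. Per the submitters' processing notes they used RMA and affy, and versions, probe definitions and filters are not given in the sources used here. The platform annotation, possibly outdated, names 23185 of 25206 probe sets, and 2021 stayed unnamed here.

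The filter kept named genes whose 4-array mean was at or above its 40th percentile (3.84). Differences were fitted with limma 3.58.1 in R 4.3.3, with 1 residual degree of freedom. Median polish left 3032 tested genes with equal values on both IP arrays (within 1e-09), so the prior spread (SD 0.11, 3.07 degrees of freedom) was estimated from the other 10879 genes. The procedure was tested on simulated data in which all 4 arrays varied alike (SD 0.173, from the IP replicates). That simulation cannot show whether the single control arrays vary like the IP. The number of arrays limits the precision. Coordinates are left out for want of a stated build.

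The members and lists were chosen with earlier results of these data known. Named genes were all 10 members, the highest and lowest of each further list per control, and further ferritin probe sets. Chosen after their values were seen were other list genes past a test, and Alas2, which passed against neither control. Alternatives were no filter or a 60th percentile filter, quantile normalization again, other prior spreads, both controls as 1 group, other thresholds, and each IP replicate left out.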

Additional observations from a re-analysis of the deposited data

How the results depend on the processing

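No paired analysis was possible because the control arrays carry no replicate number. With both controls as 1 group limma called 0 genes in each comparison (1112 at an unadjusted p under 0.05) and 0 iron genes, with a lowest adjusted p of 0.741 among them. Differences from the mean of both controls were -0.10 for Tfrc, 0.21 for Fth1, 0.30 for Slc11a2, 0.27 for Steap3, 0.58 for Aco1 and 0.79 for Ncoa4, which turned the sign against IgG for Tfrc and Fth1 and against input for Slc11a2, Steap3, Aco1 and Ncoa4. That fit counts the gap between the controls as spread.

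Quantile normalization again turned signs at small values: Steap3 (-0.023) and Fth1 (0.12) against IgG, and Slc11a2 (0.006), Steap3 (0.042) and Ncoa4 (0.089) against input. It left 1 iron gene down against IgG (Tfr2), 1 up against input (Ireb2) and 1391 genes down against input. The share of calls upward against IgG went from 63.1% (5028 and 2944) to 51.7% (4337 and 4050). By size it gave 473 genes lower than input and 1938 lower on IgG than on input. With no filter 5668 genes fell against IgG, 1407 by size, 1852 were higher on IgG than on input, and 1 iron gene rose against input. With the 60th percentile filter, which left out Ftl1, 1176 fell, 402 by size, and 505 were higher on IgG than on input. With no filter 46.7% of calls against IgG were upward, and with the 60th percentile filter 80.8%.

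With tied genes in the prior 1 iron gene rose against input and 2 fell. With trend and robust 3187 genes rose against IgG, 3 of them iron genes, and 0 iron genes rose and 2 fell against input. With 1 common spread per twentieth of expression, 1 iron gene fell against IgG and 3 against input. The cause of these changes was not tested.

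At 1.5-fold, 4167 genes were higher and 2172 lower than IgG, 1226 and 1916 than input, 828 and 219 than both, and 2623 and 5039 on IgG than on input. For the iron genes these counts were 5 and 1, 1 and 1, 1 and 0, and 2 and 6. At 4-fold the counts over all genes were 574 and 119, 102 and 42, 43 and 13, and 143 and 748, and the iron genes kept 1 above IgG and 0 lower on IgG than on input. Leaving out an IP replicate left no test. Without replicate 1 or 2 in turn, 107 to 111 genes were 2-fold lower than both controls. The iron genes lower by size than IgG, than input and than both numbered 0 to 1, the 1 being Ftl1 without replicate 1. Without replicate 1 Tfr2 differed from IgG by 0.00 and Ncoa4 from input by 0.07, and without replicate 2 Ftl1 differed from input by 0.24. Ftl1 read below the array median on 2 of the 4 arrays.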
